A study of Drosophila melanogaster with 42 samples.

Results

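The X chromosome gaps described here are stretches of at least 20000 bp that lay between neighbouring MSL3 peaks of M1[WT] males. They were chosen by a rule on measured values: the 1829 male MSL3 records on the X chromosome were sorted by start, and a gap ran from the end of a record to the start of the next. This gave 1828 gaps, of which 204 reached 20000 bp and 1624 did not, and the ends of the chromosome (54234 bp before the first record and 325023 bp after the last) were left out. The number and the length of the gaps therefore follow from the male MSL3 list and are given as a description, with no test. A gap means that no record of that list lies there, which is a statement about peaks past the authors' threshold and not about the signal itself.

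The MSL (male-specific lethal) complex brings about dosage compensation in *Drosophila* males by raising transcription of the single X chromosome. MSL1 is its scaffold, MSL2 is the subunit that is missing from normal females and that recognises GA-rich entry sites, and MSL3 carries a chromodomain that binds methylated histone H3 on the bodies of transcribed genes. The complex first binds high-affinity sites (HAS) and then spreads to active genes, so that genes with MSL3 are mostly transcribed genes of that tissue or body.

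Chromatin immunoprecipitation was made from whole adult flies that the labels give as 3 days old, and 11 of the 42 labelled libraries lie behind the 6 peak lists. Males were M1[WT] (msl-1−; Ubi:msl-1WT/Ubi:msl-1WT) and females were M1[WT]+MSL2 (msl-1−; Ubi:msl-2WT-FLAG/Ubi:msl-1WT). Both groups thus lacked endogenous MSL1 and took MSL1 from a transgene under the ubiquitous Ubi-p63E promoter, and the females also made MSL2, which they normally lack. For male MSL3 the genotype field of the labels reads M1[wt]_M2 whereas the titles and the study's methods read M1[WT]. Every list joins 2 replicate libraries except that of male MSL1, which comes from 1. Whole flies mix all tissues, and fewer cells bound by a protein cannot be told apart from less protein per cell. With 1 list per condition no spread between replicates was available, so no difference was tested, and the 95% Wilson intervals given below cover counting error only. On the X chromosome the other lists held 4317 records for MSL1 in males, 2351 for MSL2 in males, 522 for MSL1 in females, 1577 for MSL2 in females and 1100 for MSL3 in females.

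The sequences under some of the strongest peaks inside the gaps are shown first, since the shares of windows with a GA run or a heptamer given further on were counted in such windows. Each is the plus strand of dm6, read from the RefSeq genome, the summit base with 50 bases on each side. Capitals mark runs of at least 8 alternating G and A (GAGAGAGA or AGAGAGAG, or TCTCTCTC or CTCTCTCT for the other strand) and the letters ACTGCTT or, on the other strand, AAGCAGT. The strongest MSL2 record of the gaps was the same in both sexes and lay in an intron of norpA, the phospholipase C of phototransduction, and the next strongest lay in an intron of Raf, a kinase of the growth factor pathway; neither window held capitals.
norpA intron, chrX:4324881-4324981: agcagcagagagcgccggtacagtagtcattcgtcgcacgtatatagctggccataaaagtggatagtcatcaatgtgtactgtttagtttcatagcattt
Raf intron, chrX:2303990-2304090: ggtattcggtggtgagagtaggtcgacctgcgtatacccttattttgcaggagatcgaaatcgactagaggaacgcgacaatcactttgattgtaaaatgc
The male MSL2 record with the highest −log10 p among those with a GA run lay in an intron of CG42594, and the third of them in an intron of IP3K2, an inositol phosphate kinase gene. They are shown because GA runs are the known mark of MSL2 entry sites.
CG42594 intron, chrX:4888702-4888802: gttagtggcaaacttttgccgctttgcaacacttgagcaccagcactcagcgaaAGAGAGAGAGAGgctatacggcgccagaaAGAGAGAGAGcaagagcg
IP3K2 intron, chrX:13319716-13319816: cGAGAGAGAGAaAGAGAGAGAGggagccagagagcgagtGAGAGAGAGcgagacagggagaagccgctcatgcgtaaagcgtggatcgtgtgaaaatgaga
The strongest female MSL1 record lay outside genes, 1064 bp from bves, and other strong ones lay in a coding exon and an intron of alpha-Man-Ia, a mannosidase gene. They are shown for the repeated heptamer, which was noticed in these windows and then counted.
near bves, chrX:21083405-21083505: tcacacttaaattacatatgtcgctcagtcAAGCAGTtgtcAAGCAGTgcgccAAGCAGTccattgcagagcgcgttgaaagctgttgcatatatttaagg
alpha-Man-Ia coding exon, chrX:10308116-10308216: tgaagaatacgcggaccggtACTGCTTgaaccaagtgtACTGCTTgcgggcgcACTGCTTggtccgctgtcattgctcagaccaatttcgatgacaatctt
alpha-Man-Ia intron, chrX:10309158-10309258: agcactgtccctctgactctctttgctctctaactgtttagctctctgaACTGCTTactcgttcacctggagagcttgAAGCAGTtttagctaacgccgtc

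The 204 gaps added up to 15.1 Mb, 64.1% of the X chromosome, while the 1624 shorter gaps held 4.05 Mb or 17.2% and the male MSL3 records themselves covered 17.1%. The long gaps had a median length of 49346.5 bp (quartiles 32327 and 87383 bp) and the short ones a median of 746 bp. The longest gap was 815020 bp. Gaps of 20000 to 50000 bp numbered 104 and held 22.3% of the long-gap bases, 60 gaps were between 50000 and 100000 bp, 28 were between 100000 and 200000 bp, and 12 gaps above that held 25.1%. Near the limit of 20000 bp the lengths ran on without a break: the 5 gaps just inside measured 20034, 20148, 20408, 20481 and 20569 bp, and the 5 just outside measured 19474, 19511, 19526, 19586 and 19940 bp. The 5 just inside held 16 male MSL1 records and the 5 just outside held 12.

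**Figure D1:**
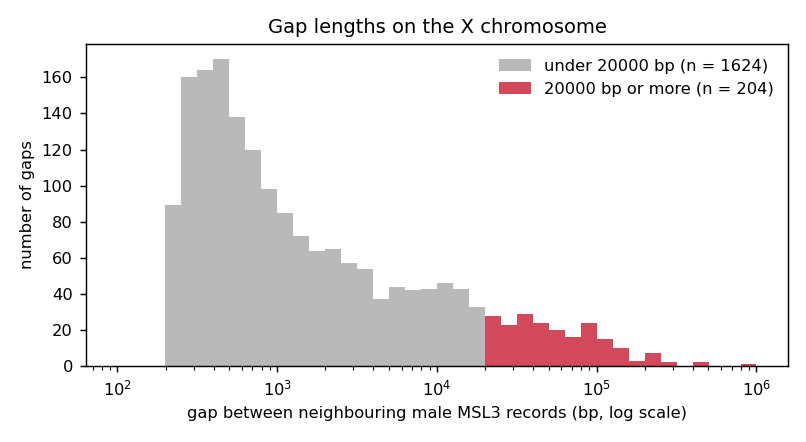
Number of gaps (vertical axis) by gap length in bp on a log scale (horizontal axis) for all 1828 gaps between neighbouring male MSL3 records on the X chromosome; red bars are the 204 gaps of 20000 bp or more and grey bars the 1624 shorter ones. Most gaps were short, with a median of 937.5 bp over all of them, and the long ones formed a tail up to 815020 bp with no break at 20000 bp.

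Long gaps lay along the whole chromosome. In the 23 complete 1 Mb steps they took from 40.4% (15 to 16 Mb) to 92.6% (22 to 23 Mb) of the bases, with a median of 64%. The share was also high at 14 to 15 Mb (88.4%) and at 20 to 21 Mb (87.8%). Of the long gaps 86 bordered another across a single male MSL3 record, and 49 records had a long gap on both sides. Those 49 records were narrower than the rest (median 643 against 1359 bp) and had a lower fold enrichment (median 3.66 against 5.08), values that come from the list that set the gaps. The chain with the greatest span joined 3 gaps over 498.8 kb (chrX:20524825-21023596), with 750 bp of male MSL3 records inside. Under the same rule male MSL3 left 71.7% to 84.8% of the 4 large autosomal arms and 68.0% of chromosome 4 in long gaps, with a median gap of 3840 to 4786 bp there against 937.5 bp on the X chromosome.

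The 5 other lists, which the rule did not use, had fewer records per length in the long gaps than in the pooled short ones. The 939 gaps under 1000 bp went the other way for 3 lists, with 1.11 records per 100 kb for male MSL1, 0.668 for female MSL2 and 0 for female MSL3, on 5, 3 and 0 summits. MSL2 of males had 242 records in the long gaps, 1.6 per 100 kb, against 8.20 in the short gaps and 44.2 under male MSL3 records, so that the short gaps were 5.11 times as dense as the long ones. MSL2 of females had 179 records, 1.19 per 100 kb against 4.25 in short gaps, 3.58 times as dense. Male MSL1 had 1131 records, 7.49 per 100 kb against 14.1, a ratio of 1.88. The other 2 lists were almost empty in gaps of either kind: female MSL1 had 18 records in long gaps (0.119 per 100 kb) and 11 in short ones (0.272), and female MSL3 had 23 (0.152 per 100 kb) and 9 (0.222). Read as shares of a list, the long gaps held 26.2% (95% interval 24.9 to 27.5) of male MSL1, 10.3% (9.13 to 11.6) of male MSL2, 11.4% (9.88 to 13.0) of female MSL2, 3.45% (2.19 to 5.38) of female MSL1 and 2.09% (1.4 to 3.12) of female MSL3 records, in 64.1% of the sequence.

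**Figure D2:**
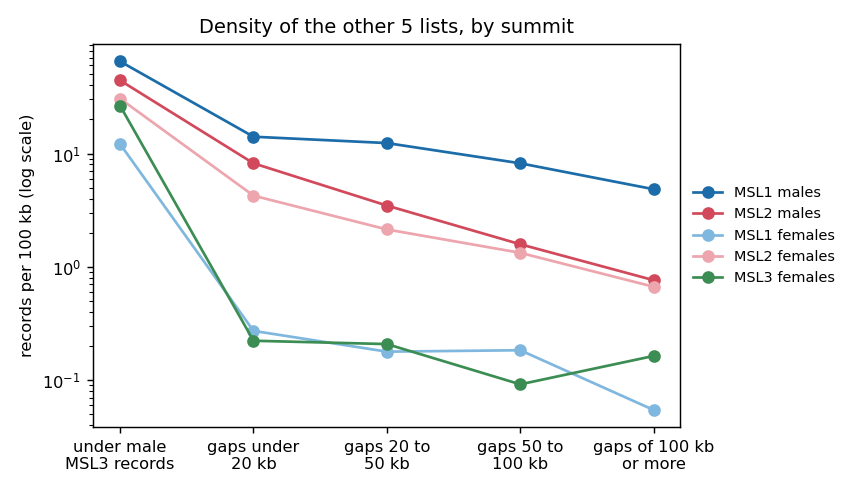
Records per 100 kb, counted by summit, on a log scale (vertical axis) for the other 5 lists (colours) under male MSL3 records, in gaps under 20 kb and in 3 length classes of long gaps (horizontal axis); each point is 1 list, and lines join its classes. Male MSL2 went from 44.2 under male MSL3 records to 0.761 in gaps of 100 kb or more, and the points of female MSL1 and MSL3 in the long gaps rest on 4 to 12 records each.

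For the 3 lists with most records the density was also lower in longer gaps. For male MSL2 it was 3.47 records per 100 kb in gaps of 20000 to 50000 bp, 1.58 in those up to 100000 bp and 0.761 in longer ones, and for female MSL2 it was 2.14, 1.33 and 0.666. Male MSL1 gave 12.4, 8.20 and 4.84. Part of the MSL2 records lay close to the ends: 16.9% of the male and 14.5% of the female MSL2 records had their summit within 2000 bp of a gap end, where 5.41% of the gap bases lie. Within the first 2000 to 5000 bp from an end male MSL2 still had 3.92 records per 100 kb, at 10000 to 20000 bp 1.58, and beyond 50000 bp 0.298. Beyond 2000 bp female MSL1 stayed between 0.0817 and 0.0980 records per 100 kb and female MSL3 between 0.0817 and 0.196, on 13 and 19 records.

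**Figure D3:**
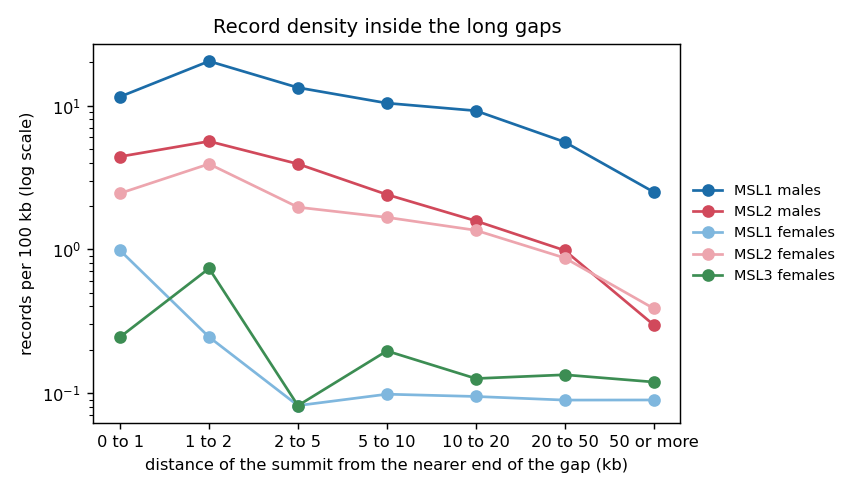
Records per 100 kb on a log scale (vertical axis) by distance of the summit from the nearer end of its long gap in kb (horizontal axis) for the other 5 lists (colours). From 1 to 2 kb on, the 3 upper lines (male MSL1, male MSL2 and female MSL2) are lower with distance, male MSL2 from 5.64 at 1 to 2 kb to 0.298 at 50 kb or more, while the 2 lower lines rest on 18 and 23 records in all.

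Most long gaps held a summit of at least 1 of the other 5 lists. A male MSL1 summit lay in 195 of 204 gaps (95.6%, interval 91.8 to 97.7), a male MSL2 summit in 128 (62.7%, 55.9 to 69.1), a female MSL2 summit in 109 (53.4%, 46.6 to 60.1), a female MSL3 summit in 21 (10.3%, 6.83 to 15.2) and a female MSL1 summit in 15 (7.35%, 4.51 to 11.8). These shares depend on how long a gap is and on how long a list is: among the 522 strongest X records of each list, the length of the shortest one, long gaps held 1 of male MSL1, 18 of male MSL2, 18 of female MSL1, 11 of female MSL2 and 0 of female MSL3. The male MSL1 list comes from 1 replicate, and its records in long gaps were weak, with a median −log10 p of 3.50. With the stronger 50% of that list, 39.7% of the long gaps held a record. Male MSL1, MSL2 and female MSL2 together, without the other lists, marked 65 gaps. Another 38 held male MSL1 alone, 38 held male MSL1 and MSL2, and 2 held all 5 lists. No female record lay in 83 gaps, no male MSL1 or MSL2 summit in 9, and no summit of any list in 7. Of those 7 gaps, 4 consisted to 60.6% to 78.9% of 50-base words that occur more than once in the genome. Some reads there may not be placed uniquely, and the part of such words in the absence of records was not tested. Setting all 6 lists together, 191 stretches of at least 20000 bp (35.4% of the X chromosome) had no record at all.

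The records inside the gaps had lower values than those under male MSL3 records in each of the 5 lists, as far as medians show. Male MSL1 records in long gaps had a median fold enrichment over IgG of 1.62 and a median −log10 p of 3.50, against 2.61 and 15.7 under male MSL3 records, and 130 of 1131 (11.5%) belonged to the 50% of the list with the highest −log10 p. For male MSL2 the medians were 2.47 and 16.9 in long gaps against 2.86 and 27.9, with 88 of 242 records (36.4%) in that upper 50%, and for female MSL2 2.38 and 13.5 against 2.52 and 17.6, with 33 of 179 (18.4%). None of the 23 female MSL3 records in the gaps was in the upper 50% of its list; their highest fold was 2.75 and their highest −log10 p 16.7. For female MSL1 the median folds were 2.95 and 3.23. In short gaps the median folds and −log10 p were 1.72 and 4.48 for male MSL1, 2.54 and 17.8 for male MSL2, and 2.61 and 16.6 for female MSL2. In the same order 18.25%, 38.55% and 51.2% of the short-gap records were in the upper 50%. Female MSL1 and MSL3 had median folds of 2.62 and 2.28 there, on 11 and 9 records. Male MSL2 records in long gaps were thus close to those in short gaps. All these folds and −log10 p values are those of the authors' peak caller, and the depth behind them is unknown.

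The strongest gap records can be named. At norpA the MSL2 record had a fold of 14.1 and a −log10 p of 464.9 in males (rank 212 of 2351 on the X chromosome) and 13.1 and 295.4 in females (rank 62 of 1577), with the summit at the same base, 2.23 kb from the end of a 35.6 kb gap. At Raf the fold was 11.4 in males and 5.35 in females, again 2.26 and 2.24 kb from the gap end. The next male MSL2 records lay in CG43658 (fold 8.71, 24.6 kb from the gap end), beside Ac13E, an adenylyl cyclase gene (8.45, 14.8 kb), and beside CG32772 (6.83, 0.534 kb). For female MSL2 they were in prage (5.43), in Nt5b, a nucleotidase gene (5.10), and in rdgA, the diacylglycerol kinase of photoreceptors (4.52). The strongest MSL1 record was shared between the sexes as well: near bves it had a fold of 5.13 in males and 8.07 in females. It was followed in males by Ca-alpha1T, a calcium channel (4.15), alpha-Man-Ia (3.48), Pkcdelta, a protein kinase C (3.85), and a site 14550 bp from the homeobox gene Vsx1 (3.78). In females CG33557 (6.63) followed, in a gap of 111.5 kb. The next 3 female MSL1 records lay in or beside alpha-Man-Ia (4.43, 4.37 and 3.78), all in 1 gap of 47.9 kb, the gap with most female MSL1 records. The strongest female MSL3 records had folds of 1.75 to 2.75 and lay 18170 bp from lncRNA:CR45521, in prage, 70763 bp from CG14621 in the longest gap, in CG16700 and in CG32751.

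The share of summits in coding exons ranged widely between the lists. Of male MSL1 summits in long gaps 572 of 1131 (50.6%) were in coding exons, which make up 7.66% of the gap sequence. In short gaps the share was similar, 52.1%, where 10.4% of the sequence is coding. The windows around male MSL1 summits in long gaps had a median GC content of 59.4%, against 41.1% over the gaps. For male MSL1 it was 58.4% in short gaps and 58.4% under male MSL3 records. In long gaps it was 59.4% for female MSL3, 58.4% for female MSL2, 54.0% for male MSL2 and 48.5% for female MSL1. The part of GC content in the lists was not tested. Male MSL2 summits were in introns in 136 of 242 cases (56.2%), close to the intronic share of the gaps (54.0%), with 24 (9.92%) in coding exons. In short gaps 52.4% of male MSL2 summits were in introns and 14.2% in coding exons. Under male MSL3 records 50.3% of male MSL2 summits were in coding exons, where 58.6% of the sequence is coding. Female MSL2 stood between, with 53 of 179 summits in coding exons (29.6%), and 10 of 23 female MSL3 summits were there (43.5%). Female MSL1 had 1 of 18 there (5.56%). A summit within 500 bp of an annotated gene start was found for 13.6% (11.7 to 15.7) of male MSL1, 18.2% (13.8 to 23.5) of male MSL2, 21.2% (15.9 to 27.8) of female MSL2, 38.9% (20.3 to 61.4) of female MSL1 and 26.1% (12.6 to 46.5) of female MSL3 records in the long gaps, while 6.32% of the gap bases are that close. In short gaps 16.5% of the bases are that close. The shares there were 19.3% for male MSL1, 29.5% for male MSL2 and 26.2% for female MSL2. Female MSL1 and MSL3 had 63.6% and 22.2%, on 11 and 9 records.

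In the long gaps the share of windows with a GA run was highest for male MSL2. The share with the heptamer was highest for female MSL1, from whose windows it was read. Neither difference was tested. A GA run as in the CG42594 and IP3K2 windows lay within 50 bases of 56 of 242 male MSL2 summits in long gaps (23.1%, interval 18.3 to 28.9), of 40 of 332 in short gaps (12.0%, 8.97 to 16.0) and of 157 of 1777 under male MSL3 records (8.84%, 7.60 to 10.3), against 1.01% of all 232428 windows of that length on the X chromosome. For female MSL2 the shares were 6.70% (3.88 to 11.3), 5.23% and 7.26%, and for male MSL1 3.98% (2.99 to 5.28), 2.63% and 4.97%. None of the 18 female MSL1 and 23 female MSL3 windows in long gaps had one, which allows up to 17.6% and 14.3% by the same interval. The heptamer ACTGCTT, on either strand, was in 6 of the 18 female MSL1 windows of the long gaps (33.3%, 16.3 to 56.3), in 0 of 11 in short gaps (up to 25.9%), in 25 of 487 under male MSL3 records (5.13%, 3.50 to 7.47) and in 1.19% of all X windows. The 6 include the female MSL1 windows shown above, in which the heptamer was noticed. The 33.3% and its interval therefore partly follow from that choice. In long gaps it was in 0 of 242 male MSL2, 0 of 179 female MSL2 and 0 of 23 female MSL3 windows (up to 1.56%, 2.10% and 14.3%) and in 16 of 1131 male MSL1 windows (1.41%). Autosomal records, from which the heptamer was not read, had it in 89 of 374 windows for female MSL1 (23.8%, 19.8 to 28.4), 43 of 409 for female MSL3 (10.5%, 7.90 to 13.9), 23 of 878 for female MSL2 (2.62%) and 65 of 3743 for male MSL2 (1.74%). The same proteins in males were lower there, with 287 of 17624 for MSL1 (1.63%) and 127 of 4289 for MSL3 (2.96%). A match is a stretch of letters and says nothing of which factor reads it.

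Overlaps between lists are given for long gaps, short gaps and the sequence under male MSL3 records. A male MSL2 record overlapped a male MSL1 record in 153 of 242 cases in long gaps (63.2%, 57.0 to 69.1), in 58.7% (53.4 to 63.9) in short gaps and in 97% under male MSL3 records. It overlapped a female MSL2 record in 63 cases (26.0%, 20.9 to 31.9), 32.2% and 47.0% in the same order. Female MSL2 records overlapped male MSL2 in 35.2% (28.6 to 42.4) in long gaps, 68.0% (60.7 to 74.5) in short gaps and 91.9% under male MSL3 records. Male MSL1 records overlapped male MSL2 in 13.7% (11.8 to 15.8), 33.7% (29.9 to 37.7) and 73.5%. Long gaps were thus below the male MSL3 records in these 4 pairs, but not below the short gaps for male MSL2 with male MSL1. Female MSL3 overlapped 9 of 179 female MSL2 records (5.03%, 2.67 to 9.28) in long gaps and 6 of 172 (3.49%, 1.61 to 7.40) in short gaps, and 3 of 18 and 1 of 11 female MSL1 records. Of the male MSL1 records in long gaps 926 of 1131 (81.9%) met no other list. The lists were called against IgG libraries that come from control flies and may be shared, so an overlap is not evidence from separate controls, and it also depends on the number and width of the records.

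The 10 longest gaps add up to 3382946 bp, 14.4% of the X chromosome, and differ much in what they hold. The longest (chrX:21629758-22444777) begins at DIP1, a gene for an RNA-binding protein, and contains the whole of lncRNA:flam, the piRNA cluster flamenco that silences transposons in ovarian follicle cells. It held no male MSL1 or MSL2 summit, but 1 female MSL1, 1 female MSL2 and 2 female MSL3 summits. It also held 64320 unknown bases and consisted to 81.1% of 50-base words found more than once in the genome. A stretch of 743.4 kb in it had no record of any list. The second gap (440.5 kb, chrX:22541855-22982346) contains Cda4, a chitin deacetylase, and fog, the ligand folded gastrulation. It held 16 male MSL1, 0 male MSL2 and 3 female MSL2 summits, and 14.6% of its words were multicopy. The third (430.6 kb, chrX:12029123-12459673) contains the 291.5 kb of Ten-a, a teneurin of synapses, and held 18 male MSL1, 4 male MSL2 and 4 female MSL2 summits.

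The fourth gap (303.7 kb) contains dpr8, an immunoglobulin-domain gene of neurons, and Muc12Ea, a mucin; it had 14 male MSL1, 3 male MSL2, 1 female MSL2 and 2 female MSL3 summits. The fifth (273.6 kb, chrX:7330831-7604465) had few records: with 23 protein-coding gene starts, among them CBP, rumpel and CheA7a, it held 1 male MSL1 summit and none of the other lists, although 1.20% of its words were multicopy. The sixth (235.5 kb) holds run, the pair-rule regulator runt, with its relatives RunxA and RunxB, and had 19 male MSL1, 1 male MSL2 and 3 female MSL2 summits. The seventh (234.3 kb, with Diedel3, tgy and part of RhoGAP18B) had 12 male MSL1, 1 male MSL2, 3 female MSL2 and 1 female MSL3 summits. The eighth (231.1 kb) contains 81.1% of shakB, a gap junction gene, with Npc1b and Ser6, and had 6 male MSL1 and 1 male MSL2 summits. The ninth (209.9 kb, with DIP-beta, Cyp6t1 and Ir20a) had 7 male MSL1, 2 male MSL2 and 1 female MSL2 summits, and the last of the 10 (208.7 kb), with the eye colour gene w, Syx4 and 52.7% of kirre, a cell adhesion gene, had 12 male MSL1 and 1 male MSL2.

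**Figure D4:**
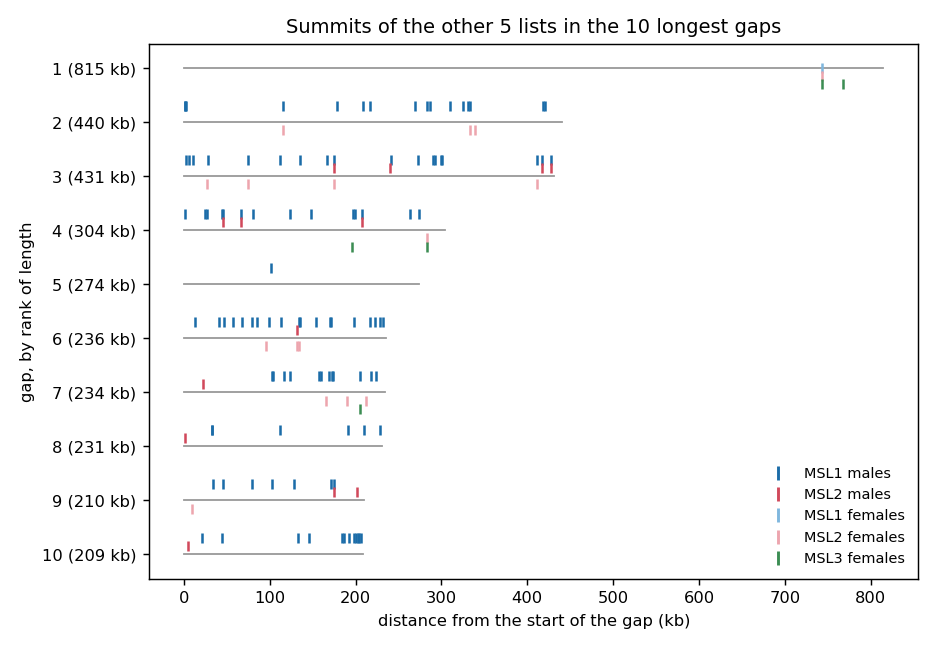
Each grey line is one of the 10 longest gaps, drawn to scale from its start in kb (horizontal axis) and ordered by length (vertical axis); coloured ticks are the summits of the other 5 lists, male lists above or on the line and female lists below it or on it. The longest gap has a stretch of 743.4 kb with no tick, the fifth holds 1 tick, and the other 8 hold 7 to 26.

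The gap with most records differed between the lists. For male MSL1 it was a 113.8 kb gap with Bx, a LIM-domain regulator, and wgn, a tumour necrosis factor receptor gene, with 22 summits. For male MSL2 it was a 26.1 kb gap at dlg1, a scaffold gene of cell junctions, with 6 summits, a number that 3 gaps reached. For female MSL2 it was a 52.2 kb gap with stg1, bves and unc, with 6 summits, and for female MSL3 the fourth longest gap, with 2, as many as the longest.

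Gene starts were fewer per length in the long gaps. Of 2196 protein-coding genes on the X chromosome 761 (34.7%, interval 32.7 to 36.7) started in a long gap, 735 in a short gap and 700 under a male MSL3 record. This is 5.04 starts per 100 kb of long gap, against 18.2 in short gaps and 17.4 under records. Over all 2813 genes other than transposable elements the share was 36.8% (1035 genes). Coding sequence made up 7.66% of the long gaps, 10.4% of the short gaps and 58.6% of the sequence under male MSL3 records, and introns made up 54.0%, 52.3% and 18.0%. Genes that started in long gaps were shorter at the median (1828 bp, against 2527 bp for short gaps and 3367 bp under records), but more of them were longer than 20000 bp: 100 (13.1%), against 35 (4.76%) and 63 (9%). A whole long gap lay inside a single protein-coding gene in 44 cases, spread over 39 genes. Of these genes dnc, the cAMP phosphodiesterase dunce of learning mutants, and mamo, a zinc finger regulator, held 3 gaps each, and mgl, Mur2B and Tlk held 2 each; they are named here by that count, after it was seen. No protein-coding gene started in 42 long gaps, and at most 23 did.

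Against the 34.7% of all protein-coding genes, the groups of genes ranged from none to all of their members in long gaps, and these small groups were not tested. None of the 14 ribosomal protein genes started in a long gap; 13 started under a male MSL3 record and RpL35 104 bp from one. Of the 6 proteasome genes 2 started in a long gap (33.3%), close to the share of all protein-coding genes. Rpt4, Rpt3, Rpt6 and Prosalpha4 started within 83 bp of a record. Rpn13R and Prosbeta2R1, paralogs of proteasome genes, started in gaps 40.1 and 18.1 kb away from one. The dosage compensation genes lncRNA:roX1, lncRNA:roX2 and mof started under records, and Pp2C1, a phosphatase gene, 170 bp from one. In contrast, all 4 genes of the achaete-scute complex, the proneural regulators ac, sc, l(1)sc and ase, started in 1 gap of 133.2 kb at 9.78 to 60.8 kb from a record. That gap held 3 male MSL1 summits and 1 female MSL2 summit. Of the other regulators run, B-H1, B-H2, vnd and lz started in gaps (5 of 10), with run 69.7 kb and lz 1.33 kb from a record. The genes ct, oc and btd started under a record, and gt and sd in short gaps, 0.216 and 1.41 kb from one. The potassium channel Sh, the sodium channel para and the calcium channel cac started in gaps, 14.0, 9.30 and 23.1 kb from a record, and eag 4.64 kb from one in a short gap.

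Eggshell, yolk and larval genes mostly started in gaps. The counts in this paragraph stand beside 34.7% of all protein-coding genes on the X chromosome. Neighbouring members of a cluster share a gap and are not separate cases. Of 7 eggshell genes 6 started in long gaps: Cp7Fa, Cp7Fb, Cp7Fc, Cp36 and Cp38 of the chorion cluster, which follicle cells amplify, all in a 50.8 kb gap, and dec in another. The chorion gap held 7 male MSL1, 2 male MSL2, 1 female MSL1, 4 female MSL2 and 1 female MSL3 summits, and was one of 2 gaps with all 5 lists. Yp1 and Yp2, the yolk proteins, started in a gap of 35 kb, 16.2 and 17.4 kb from a record, and Yp3 started under one. All 5 genes of larval secreted proteins started in gaps, with Lsp1alpha in one of 96.4 kb and Sgs4, ng1, ng2 and ng3 in one of 79.3 kb that held 1 male MSL1 summit and no other. The 13 Stellate genes all started in a gap of 84.1 kb with 6 male MSL1 summits and 1 male MSL2 summit. Ste12DOR lay apart from the others, 1.47 kb from a record. The others form a tandem array whose copies give nearly the same reads. Chemoreceptor genes started in gaps in 16 of 25 cases, 7 of them the Ir7 cluster (Ir7a to Ir7g) in a gap of 146.7 kb.

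Non-coding genes differed by kind, against 36.8% of all genes. None of the 31 snoRNA genes started in a long gap (up to 11% by the interval), and 24 started under a male MSL3 record. For microRNA genes the count was 14 of 58 (24.1%), for all genes of the non-coding RNA class, microRNA genes included, 213 of 483 (44.1%), for tRNA genes 17 of 24 (70.8%, 50.8 to 85.1), and for pseudogenes 42 of 74 (56.8%, 45.4 to 67.4). Long gaps hold 64.1% of the sequence. Per length, tRNA genes were near the chromosome as a whole, with 0.113 starts per 100 kb of long gap against 0.102. Pseudogenes had 0.278 against 0.314. Transposable element insertions in the annotation began in long gaps in 753 of 912 cases (82.6%, 80.0 to 84.9), 4.99 per 100 kb against 3.06 in short gaps and 0.697 under records.

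**Figure D5:**
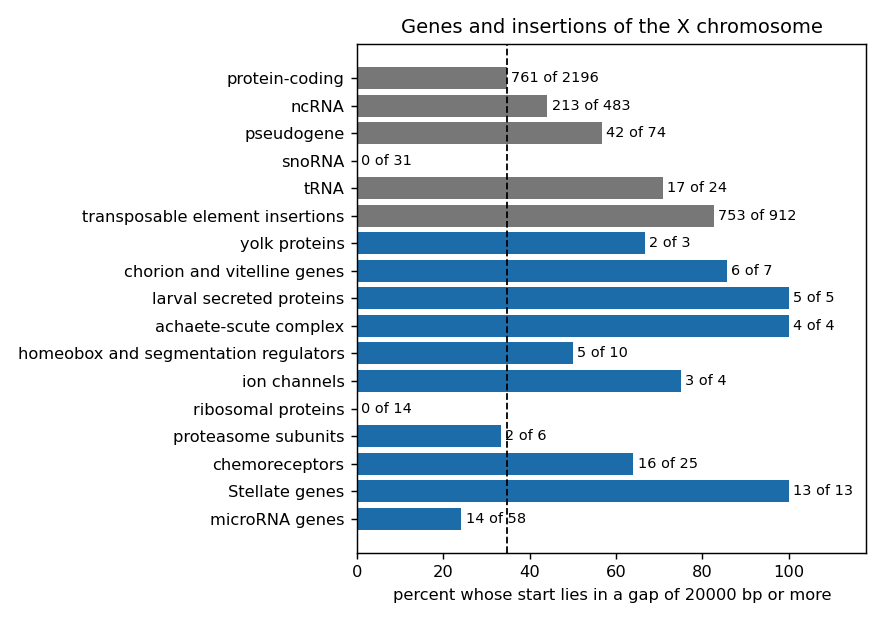
Percent of genes or insertions whose start lies in a long gap (horizontal axis, bars from 0) by class of the annotation (grey) and by gene list (blue), with the counts printed beside each bar; the dashed line is the 34.7% of all protein-coding genes. Ribosomal protein and snoRNA genes are at 0, Stellate, achaete-scute and larval secreted protein genes at 100%, and the lists are small.

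Most of the gap sequence was made of words that occur once in the genome. The median gap had 1.83% of multicopy 50-base words (quartiles 0.0781% and 9.94%), yet 51 gaps had over 10% and 8 over 50%, and over all gap bases the share was 12.2%, against 5.32% in short gaps and 0.217% under male MSL3 records. Without the 10 longest gaps it was 8.77%. Among the summits of the 5 lists in long gaps 1, a male MSL2 summit, had over 50% multicopy among the words that cover it. In the 153 gaps with at most 10% of such words male MSL2 had 1.76 records per 100 kb, against 1.6 in all 204. This choice of gaps was made after seeing the data, short gaps were not restricted in the same way, and the part of multicopy words in the density was not tested. GC content was 41.1% in long gaps, 38.9% in short gaps and 50.7% under records, and GA runs numbered 10.8, 12.0 and 14.9 per 100 kb.

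HAS, at the positions the study compiled, were few in the gaps: 12 of 301 (3.99%, interval 2.30 to 6.84), against 21 in short gaps and 268 under male MSL3 records. These 12 lay in 2 gaps. A 24.2 kb gap at fd3F and Crg-1 held 8 of them and 1 male MSL1 summit but no MSL2 summit, the nearest male MSL2 summit being 4472 to 11021 bp away. Of its 50-base words 43.7% were multicopy, and their part in the absence of MSL2 records was not tested. Its 8 positions lay close together, at 3791190 to 3792582 and at 3800581 to 3801822. The interval above counts each position as a separate site. A 95.5 kb gap at yl, the yolk protein receptor gene, held the other 4, 1 of which had a male MSL2 summit within 500 bp. The centre of a long gap was 45.9 kb from the nearest HAS at the median (1.36 to 424.1 kb) and 16.6 kb from the nearest male MSL2 summit, and the centre of a short gap 8.80 kb from a HAS.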

How the data were processed

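ChIP-seq of MSL1, MSL2 and MSL3 was described from 6 deposited peak lists in dm6 coordinates. The authors trimmed reads (cutadapt), aligned them with Bowtie 2, removed duplicates (Picard) and blacklisted regions, used MACS2 with an IgG background to call peaks, and kept those reproducible between 2 replicates by IDR; the list of male MSL1 is a MACS2 list of 1 replicate. Deposited columns used were the peak position and summit, the fold enrichment (a ratio over IgG) and −log10 p, with −log10 q for 1 alternative. Signal tracks were not used here. Read depth behind the peaks is unknown.

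Gaps, counts by summit, covered bases and distances were computed with Python 3.11.15 (numpy 2.4.6, pandas 2.3.3, scipy 1.17.1) and tested on simulated data against bedtools. Genes came from Ensembl release 115 (the start is the 5′ end of the gene model), sequence from RefSeq Release 6, both in the coordinates of dm6. Words were 50 bases long, counted on both strands of the genome. Symbols not of the CG, CR or lncRNA-number kind were named, at most 3 in each of the 10 longest gaps, besides list members, the 5 strongest records a list and the 5 gaps on each side of 20000 bp. The gaps and gene lists were chosen with earlier results of these data known, and the heptamer was chosen after its windows were seen. Wilson intervals (95%) cover counting error. Alternatives varied the gap limit, the counting rule and the strength of records.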

Additional observations from a re-analysis of the deposited data

How the results depend on the processing

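Of the recomputed values 54 stayed within 1.5 times the value given (counts and densities) or within its interval (shares), and 36 moved. For the share of the X chromosome and for covered bases the interval took each base as a separate draw. It is therefore very narrow, and small shifts in these shares count as moved. A limit of 10000 bp gave 326 gaps, while 15000, 25000 and 30000 bp gave 247, 177 and 155, joined records and a −log10 q of at least 2 gave 204 again, and the strongest 50% of the male MSL3 records gave 194. The share of the X chromosome in long gaps was 71.4%, 67.3%, 61.5% and 59% at those limits, 74.3% with those 50% of the records and 64% without unknown bases. Protein-coding genes in long gaps were 41.5%, 37.6% and 31.1% at 10000, 15000 and 30000 bp, 29.4% by whole gene bodies and 40.8% by any overlap.

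With the stronger 50% of each list, long gaps with a record were 39.7% for male MSL1, 31.4% for male MSL2, 2.45% for female MSL1, 14.7% for female MSL2 and 0% for female MSL3, and records per 100 kb were 0.861 for male MSL1, 0.583 for male MSL2, 0.0464 for female MSL1, 0.219 for female MSL2 and 0 for female MSL3. With 522 records a list the gaps with one were 0.49% for male MSL1, 7.84% for male MSL2, 5.39% for female MSL2 and 0% for female MSL3. Counting any overlap gave 81.4% for male MSL2, 17.6% for female MSL1 and 60.3% for female MSL2, and 0.272 records per 100 kb for female MSL1; for male MSL1 a limit of 10000 bp gave 88.7%. Without the outer 2000 bp the covered bases were 2.76% for male MSL1, 0.645% for male MSL2, 0.0518% for female MSL1, 0.433% for female MSL2 and 0.0751% for female MSL3. Densities in the 153 gaps with few multicopy words, an alternative chosen after seeing the data, were within 1.5 times those of all gaps for the 5 lists. No paired analysis was possible because each list is 1 set of peaks in which replicates are not separate, and for the same reason no replicate was left out. The depth of the libraries, the 1 replicate of male MSL1 and the authors' thresholds limit what an absent record means.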
